A study of Homo sapiens with 45 samples.

Results

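HLA class I molecules carry peptides from inside the cell to its surface, where CD8+ T cells read them. A heavy chain (HLA-B, HLA-C or HLA-E) pairs with the light chain β2-microglobulin (B2M), peptides are cut by the immunoproteasome (PSMB8 and PSMB9 are catalytic subunits of it), and TAP1 with TAP2 pumps them into the endoplasmic reticulum. NLRC5 is the transactivator that, with RFX, NF-Y and CREB-family factors, drives class I heavy chains, B2M, TAP1 and PSMB9, and interferon raises most of these genes. Tumour cells can lose surface class I when B2M or a step of this pathway fails.

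The 9 genes named above were followed in 15 breast cancer cell lines of human origin, 3 libraries to a line. They were taken as the rows of the raw count table whose Ensembl identifiers lie on chromosomes 6, 15 and 16 of the primary assembly, and they are 9 of 64485 rows. All lines are labelled wild-type and epithelial, and none was treated. In L-15 medium, 5 lines were grown (MDA-MB-453, MDA-MB-468 and MDA-MB-157, with MDA-MB-436 and MDA-MB-231), with insulin and glutathione added for MDA-MB-436. In RPMI 1640 medium, 8 lines were grown (HCC1395, HCC1937, HCC70, BT-549, HCC1187, HCC38, HCC1143 and HCC1806), with insulin added for BT-549. BT-20 alone was kept in EMEM, with insulin, and Hs578T alone in DMEM. Libraries held 2312138 to 14653677 counts, with a median of 6263573. Separate cultures behind the 3 libraries are not stated in the labels, and p-values therefore measure only a spread that may be technical.

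The epithelial label held unevenly. The summed level of 6 epithelial markers was 11375 CPM (counts per 1000000 counts of a library, after TMM scaling) in BT-20 and 99.0 CPM in BT-549, and it was also low in Hs578T (139 CPM), MDA-MB-436 (169.5 CPM), HCC1395 (268 CPM) and MDA-MB-157 (320 CPM). The 8 leukocyte markers, which would mark cells rich in class I, summed to between 3.99 CPM in HCC1806 and 36.2 CPM in MDA-MB-157, and the 3 endothelial markers to between 0.795 CPM in HCC1395 and 121 CPM in BT-20. CDH5 made up most of the endothelial sum in BT-20 (118 CPM), while PECAM1 was highest in HCC1937 (15.8 CPM) and VWF in MDA-MB-436 (2.44 CPM). Of the leukocyte markers, CD14, a monocyte receptor, had the highest line mean, 33.3 ± 4.03 CPM in HCC70, and 0.0343 CPM in HCC1395. ITGAM reached 5.15 CPM in HCC1937, PTPRC 4.84 CPM in MDA-MB-453, CSF1R 4.80 CPM in MDA-MB-157 and MS4A1 3.69 CPM in Hs578T, while the lymphocyte genes CD2, CD3E and CD79A stayed at or below 1.26 CPM in every line. The part of such markers in the member levels was not tested.

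The depth of the rows was unequal. B2M on chromosome 15 and NLRC5 on chromosome 16 were well counted, with 76918 and 3186 counts over 45 libraries, and both had counts in all 45. Of the 7 rows on chromosome 6, HLA-B held 12762 counts, most of them in a few lines, and HLA-C held 2115. The other 5 rows were nearly empty: HLA-E held 5 counts, TAP1 held 15, TAP2 held 107, PSMB9 held 1 and PSMB8 held 0.

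Low counts were shared by the neighbourhood. Within 2 Mb of the start of HLA-B, 154 of 165 protein-coding genes (93.3%) had a mean under 1 CPM, against 189 of 804 (23.5%) of those more than 4 Mb away on chromosome 6 and 5694 of 18851 (30.2%) on other chromosomes. RPS18, a ribosomal protein gene in this stretch that growing cells use, held 56 counts, while RPS10, a ribosomal protein gene about 1 Mb beyond it, held 39397. A stretch in which a ribosomal protein gene is nearly uncounted cannot be read as silent, so the chromosome 6 rows are given as counts assigned to a row and not as expression.

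A property of the annotation moved with the low counts. GENCODE 29 names transcripts of HLA-B 10 times on the primary assembly and 48 times on sequences outside it, which carry alternative versions of the same region. The same numbers are 10 and 81 for HLA-C, 3 and 18 for HLA-E, 6 and 21 for TAP1, 5 and 32 for TAP2, 6 and 35 for PSMB8, 5 and 42 for PSMB9, and 15 and 14 for B2M. NLRC5, with 29 and 0, was the only member of the 9 with none outside. The leukocyte marker PTPRC has 17 and 14. Among all protein-coding genes with at least 1 transcript outside the primary assembly, 931 of 1042 (89.3%) had a mean under 1 CPM, against 5129 of 18850 (27.2%) of those with none. Leaving out chromosome 6, it was 765 of 864 (88.5%). The part of this in the counts of any member was not tested.

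**Figure D1:**
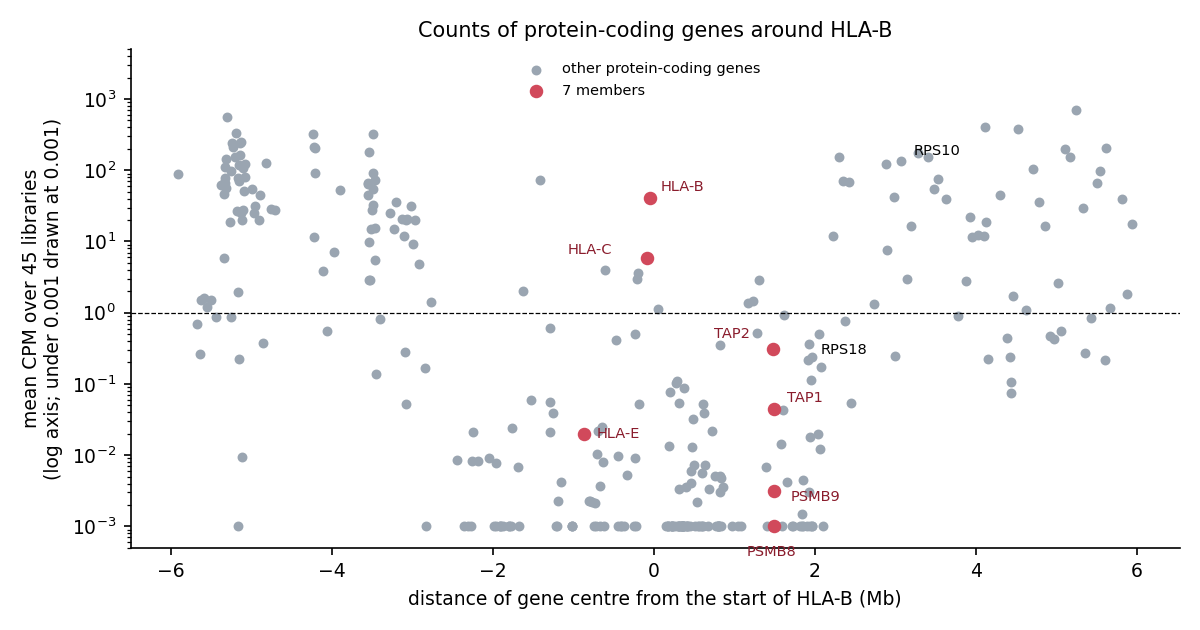
Each point is a protein-coding gene, placed by its distance in Mb from the start of HLA-B (x axis) and its mean CPM over 45 libraries (y axis, log scale), with the 7 members on chromosome 6 in red and a dashed line at 1 CPM. Of the 165 genes within 2 Mb, 154 lie under the line, and HLA-B and HLA-C lie above it.

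Of the 9 members, 4 passed the filter on low counts (HLA-B, HLA-C, B2M and NLRC5), and HLA-E, TAP1, TAP2, PSMB8 and PSMB9 did not. All 4 differed among the lines by the edgeR quasi-likelihood F test, as did 98.2% of the 20587 genes tested, so this count sets the members apart from nothing. Each line was then set against the mean, on the log scale, of the other 14. A member was called where the Benjamini-Hochberg adjusted p was at most 0.05 and the absolute log2 fold change at least 1. Over 60 such comparisons, 21 were called higher (35%) and 9 lower (15%), against 16.2% and 12.5% over all genes. In 6 of these comparisons, all of HLA-B, no call of lower was possible because MDA-MB-453 is at 0 in that row. This limit holds for any gene with a line at 0. Of the 21 calls of higher, 8 were of B2M, against a log-scale mean pulled down by 2 lines near 0. HLA-C, with 5 or fewer counts in 28 of 45 libraries, passed the filter through the few lines where its row is high. The pooled shares are therefore not read as an excess of calls among the members. Without MDA-MB-453, over 14 lines, the members had 20 calls of higher and 13 of lower. The pooled share of all genes called in that fit is not given, so 16.2% and 12.5% are no background for these counts. In a single line the share of all genes called higher lay between 13.3% (BT-549) and 20.9% (Hs578T), and the share called lower between 9.19% (MDA-MB-468), 9.56% (Hs578T) and 22.9% (HCC70).

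NLRC5, the transactivator, lies on chromosome 16 at 56989485 to 57083531 on the plus strand (GRCh38). It was highest in HCC1937, with 22.5, 19.7 and 22.0 CPM in the 3 libraries, followed by HCC70 with 23.1, 16.7 and 19.0 CPM and MDA-MB-157 with 21.4, 16.9 and 17.8 CPM. These 3 lines overlapped each other and lay above the library range of the next line, HCC38 (8.66 to 14.9 CPM), but replicate 3 of BT-549 (19.7 CPM) lay among them. At the other end, HCC1395 had 2.28, 1.57 and 0.925 CPM and MDA-MB-453 had 1.13, 2.78 and 4.52 CPM, both below the library range of BT-20 (4.81 to 6.23 CPM), while the lowest HCC1143 library (3.42 CPM) lay within the range of MDA-MB-453. These levels rest on 6 to 249 counts of NLRC5 per library. In bulk RNA, fewer cells with a transcript and less of it per cell cannot be told apart.

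Between them the levels of NLRC5 formed a slope with few steps. HCC38 averaged 12.02 ± 3.14 CPM, BT-549 11.6 ± 7.06, HCC1187 10.9 ± 3.08, MDA-MB-436 10.6 ± 1.12, MDA-MB-231 9.64 ± 1.15 and MDA-MB-468 9.34 ± 2.33 CPM (SD, n = 3 each). Hs578T averaged 7.30 ± 1.13 CPM, HCC1806 7.03 ± 1.03, HCC1143 5.54 ± 1.89 and BT-20 5.41 ± 0.73 CPM (SD, n = 3 each). Of the 14 pairs of neighbours in the order of line means, only 2 did not overlap, below MDA-MB-157 and below BT-20. From the highest to the lowest line mean, the range was 13.4-fold.

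Against the other 14 lines NLRC5 was higher in HCC1937, by 1.43 ± 0.18 on the log2 scale (SE; edgeR quasi-likelihood test, adjusted p = 2.82e-09), in HCC70 by 1.29 ± 0.18 (2.76e-08) and in MDA-MB-157 by 1.23 ± 0.19 (3.44e-07). It was lower in HCC1395, at −2.63 ± 0.31 (SE; edgeR, adjusted p = 3.68e-10), and in MDA-MB-453, at −1.63 ± 0.28 (2.46e-06). The background in these lines was 14.5%, 17.7% and 20% of genes higher in HCC1937, HCC70 and MDA-MB-157, and 17.7% and 14.6% of genes lower in HCC1395 and MDA-MB-453. In the remaining 10 lines NLRC5 was not called.

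**Figure D2:**
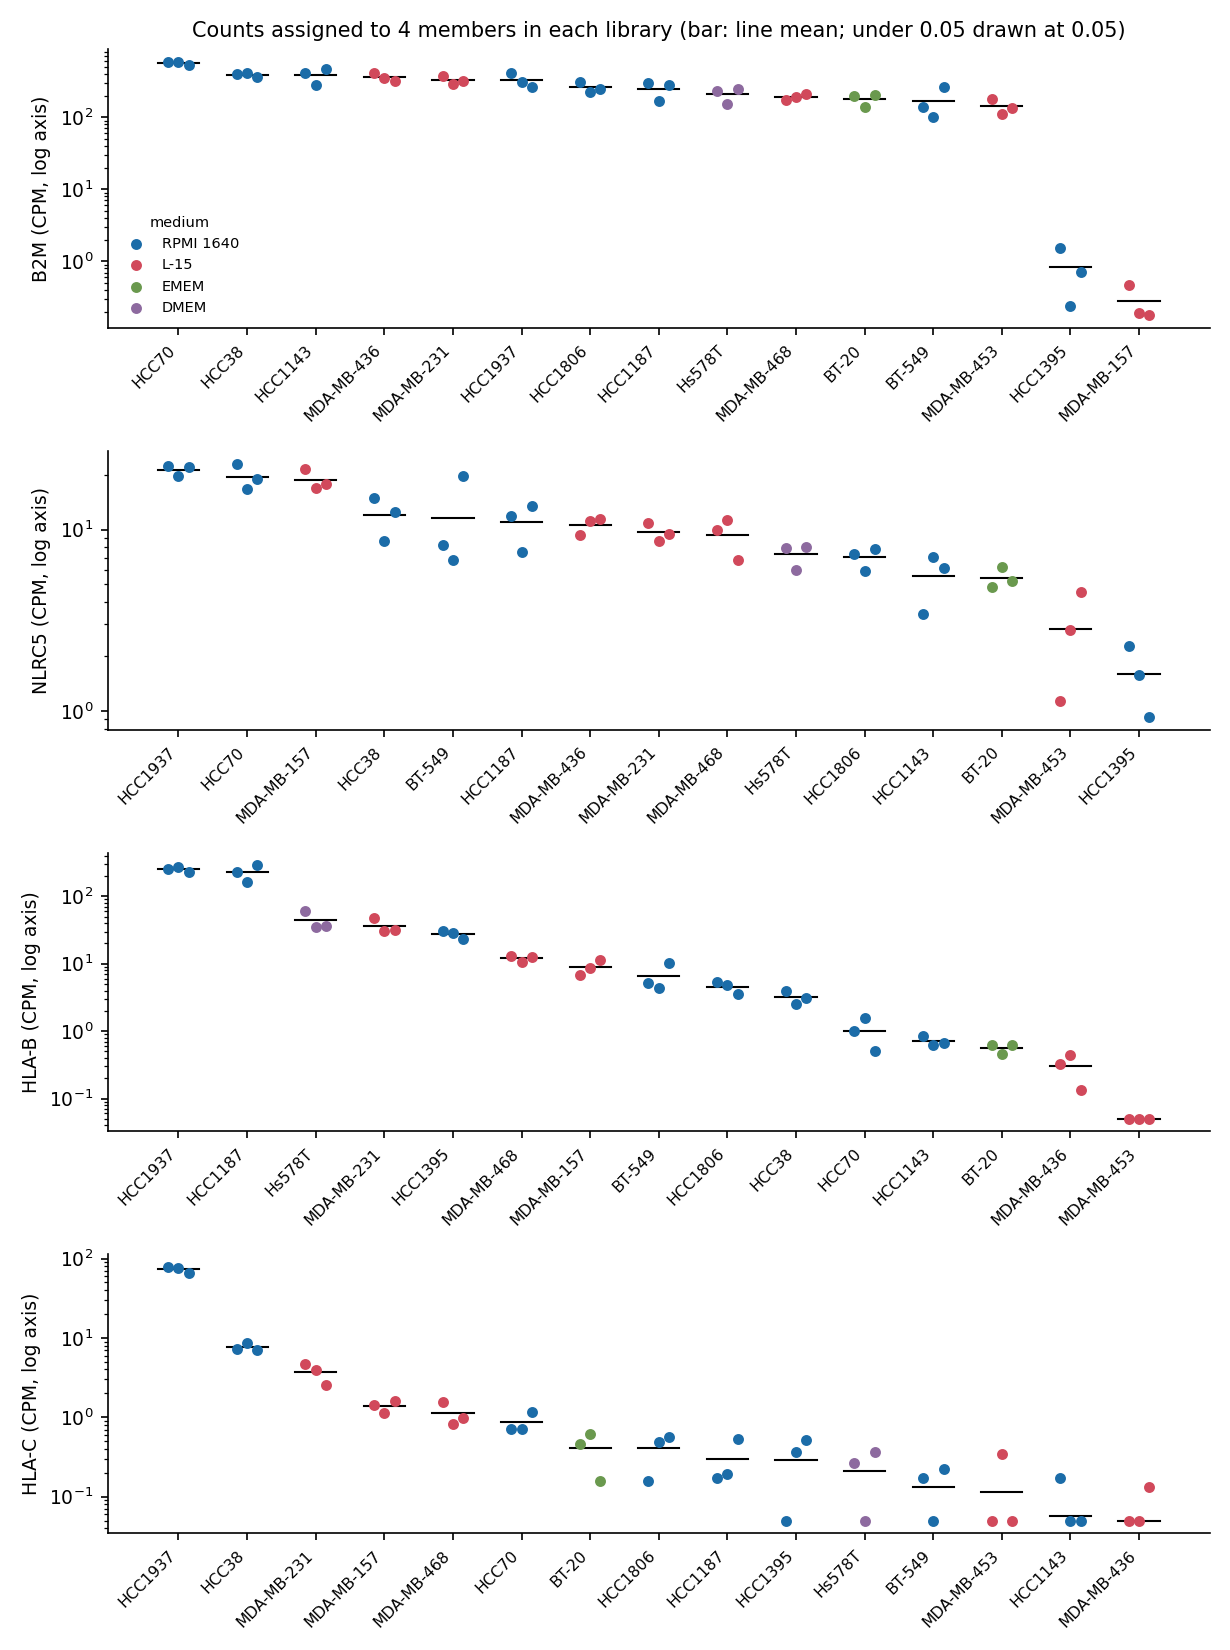
CPM (y axes, log scale) of B2M, NLRC5, HLA-B and HLA-C in each of 45 libraries, with the 15 lines ordered by their mean (bar) and points coloured by medium. B2M falls to 0.828 and 0.282 CPM in HCC1395 and MDA-MB-157 while the other 13 lines lie between 101 and 586 CPM; points under 0.05 CPM are drawn at 0.05.

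B2M, the light chain shared by all class I heavy chains, lies on chromosome 15 at 44711487 to 44718877 on the plus strand (GRCh38). MDA-MB-157 had 0.476, 0.190 and 0.178 CPM of B2M, from 3, 1 and 1 counts, and HCC1395 had 1.52, 0.242 and 0.720 CPM, from 10, 2 and 7 counts. The 39 libraries of the other 13 lines lay between 101 and 586 CPM. No library of either line came near that range, and the 2 lines overlapped each other.

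Set against the median of the other 14 lines, with the 3 libraries of a line summed, B2M was 695-fold lower in MDA-MB-157 (95% Poisson interval 298 to 2140) and 312-fold lower in HCC1395 (199.6 to 518). These intervals cover counting error only. The fitted difference was −9.16 ± 0.44 on the log2 scale in MDA-MB-157 (SE; edgeR, adjusted p = 5.47e-23) and −7.70 ± 0.63 in HCC1395 (adjusted p = 1.05e-14). The share of all genes called lower was 12.4% in MDA-MB-157 and 17.7% in HCC1395. Both lines lie among those with low epithelial and high mesenchymal marker sums (4844 and 3105 CPM over 4 mesenchymal markers). Hs578T (7257 CPM) and BT-549 (3436 CPM), also among them, had 210 ± 51.3 and 168 ± 85.4 CPM of B2M (SD, n = 3 each). A link between marker sums and B2M was not tested.

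The genes beside B2M differed between the 2 lines. In MDA-MB-157, SPG11, the spatacsin gene next but one upstream, had 15 counts in 3 libraries, or 1.02 CPM against a median of 98.2 CPM in the other lines, which is 96.2-fold lower (95% Poisson interval 58.3 to 172). SPG11 has 0 annotated transcripts outside the primary assembly. PATL2, which lies between SPG11 and B2M, had 0 counts in MDA-MB-157, at least 4.27-fold lower than the median of 0.873 CPM in the other lines (floor of 3 counts over the summed libraries). TRIM69, the next gene downstream of B2M, also had 0 counts there, but its median in the other lines was 0.172 CPM, too low for a comparison. Outside the primary assembly, PATL2 has 1 annotated transcript and TRIM69 has 12. Farther away, SQOR, a sulfide-oxidising enzyme gene near the downstream edge of a window of 1 Mb, had 2.45 CPM in MDA-MB-157, 12.9-fold lower than the median (95% Poisson interval 9.34 to 18.5) and below the 7.87 to 112 CPM of the 13 lines other than MDA-MB-157 and HCC1395. WDR76, upstream, had 32.1 CPM in MDA-MB-157, below their 39.6 to 184 CPM. C15orf48 (0.136 CPM, from 2 counts) and SORD (3.47 CPM) were also under their medians, but within the range of those lines. EIF3J, just beyond SPG11, had 81.7 CPM in MDA-MB-157 and 78.5 to 185 CPM in the other 13 lines.

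In HCC1395 the upstream neighbours SPG11, PATL2 and EIF3J were not low. SPG11 had 99.9 CPM, PATL2 had 1.40 CPM and EIF3J had 169 CPM there, so that among these genes B2M alone stood below the other lines. The counts hold no measure of DNA, and whether either line has lost sequence at this locus was not tested.

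**Figure D3:**
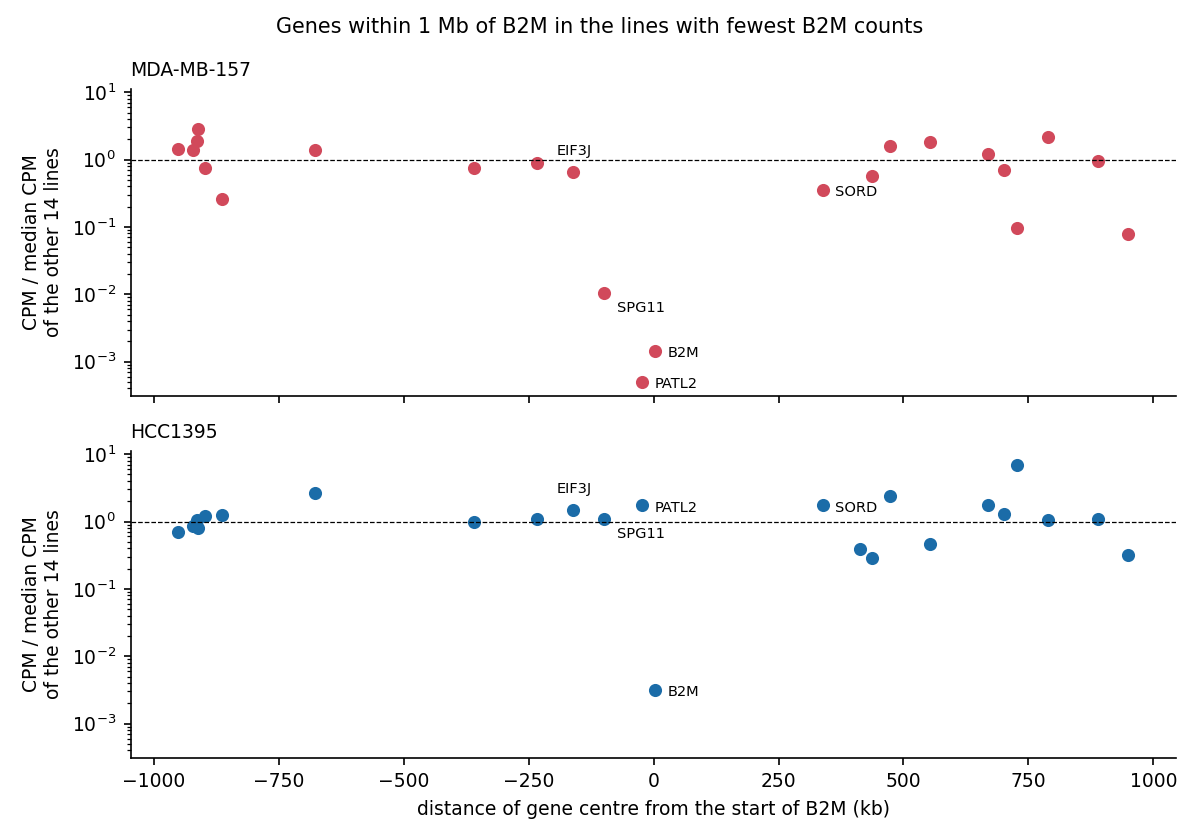
Each point is a gene within 1 Mb of B2M with a median of at least 0.5 CPM in the other lines, placed by distance from the start of B2M in kb (x axis) and by its CPM over the median of the other 14 lines (y axis, log scale; values of 0 drawn at 0.0005), for MDA-MB-157 above and HCC1395 below. In MDA-MB-157 SPG11 and B2M lie far under the dashed line at 1, as do SQOR (0.0773) and C15orf48 (0.0961) toward the right edge. PATL2, with 0 counts there, is drawn at 0.0005, but its counts bound it only at 4.27-fold lower or more. In HCC1395 B2M is the point at 0.00321.

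In the other 13 lines B2M varied 3.99-fold. HCC70 was highest with 586, 582 and 530 CPM (mean 566 ± 31.2, SD, n = 3), above every library of every other line. HCC38 averaged 390 ± 22.0 CPM, HCC1143 383 ± 95.3, MDA-MB-436 360 ± 44.8, MDA-MB-231 329 ± 46.9, HCC1937 326 ± 73.1, HCC1806 261 ± 44.4 and HCC1187 248 ± 70.2 CPM (SD, n = 3 each). MDA-MB-468 averaged 192 ± 17.3 CPM, BT-20 179.7 ± 35.7 and MDA-MB-453 142 ± 32.4 CPM (SD, n = 3 each). Of the 14 neighbouring pairs of lines, 2 did not overlap, below HCC70 and below MDA-MB-453.

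B2M was called higher in 8 lines (HCC70, HCC38, HCC1143, MDA-MB-436, MDA-MB-231, HCC1937, HCC1806 and HCC1187), where 13.8% (HCC38) to 18.4% (HCC1143) of all genes were, and the 2 lines near 0 pull the mean on the log scale that each was set against. HCC1187, at 248 CPM, was called higher by 1.18 ± 0.17 (SE; edgeR, adjusted p = 4.35e-08), although the other 14 lines averaged 251 CPM on the linear scale. HCC70, called higher by 2.45 ± 0.15 (SE; edgeR, adjusted p = 1.42e-19), was 2.47 times the median of the other lines. Where a line was compared only with lines of its own set of sequencing runs, which for HCC1143, HCC38 and MDA-MB-231 holds neither line near 0, their B2M difference was 0.35, 0.32 and 0.06 and none was called (edgeR, adjusted p = 0.053, 0.075 and 0.78).

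The promoters of the 3 best counted genes of the molecule itself are shown because NLRC5 acts there together with factors that bind CRE-like and CCAAT-box motifs. The 250 bases before the RefSeq start (GRCh38.p14) are chr15:44711267-44711516 on the plus strand for B2M, chr6:31357180-31357429 on the minus strand for HLA-B and chr6:31272093-31272342 on the minus strand for HLA-C. Capitals mark matches, on either strand, to GAAANNGAAA (an interferon response type), TTCNNNGAA (GAS), GGGNNNTCCC (NF-kB type), CCAAT (the box of that name) and the CRE core TGACG.
B2M: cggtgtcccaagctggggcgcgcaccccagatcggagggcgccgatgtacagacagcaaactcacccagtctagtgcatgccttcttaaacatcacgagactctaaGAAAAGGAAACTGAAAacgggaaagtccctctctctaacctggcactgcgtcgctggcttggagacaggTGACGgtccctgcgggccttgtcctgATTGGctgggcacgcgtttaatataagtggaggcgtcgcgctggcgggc
HLA-B: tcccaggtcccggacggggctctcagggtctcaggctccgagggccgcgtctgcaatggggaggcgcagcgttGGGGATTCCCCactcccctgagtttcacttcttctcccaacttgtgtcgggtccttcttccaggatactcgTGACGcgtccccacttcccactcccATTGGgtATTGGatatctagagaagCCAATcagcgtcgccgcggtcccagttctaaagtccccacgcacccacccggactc
HLA-C: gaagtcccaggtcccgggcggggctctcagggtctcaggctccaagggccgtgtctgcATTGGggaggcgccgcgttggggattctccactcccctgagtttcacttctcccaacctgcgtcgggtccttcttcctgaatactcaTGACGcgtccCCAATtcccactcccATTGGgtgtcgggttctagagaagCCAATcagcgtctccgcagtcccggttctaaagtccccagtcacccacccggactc
B2M held 2 overlapping GAAANNGAAA matches, at −144 and −138 from the start, TGACG at −75 and CCAAT (as ATTGG) at −49. HLA-B held TGACG at −106, CCAAT at −81, −74 and −56, and GGGNNNTCCC on both strands at −177 and −176, in overlapping letters. HLA-C held TGACG at −105 and CCAAT at −192, −95, −80 and −56, and no GGGNNNTCCC. Of 35116 promoters of this length, 3.02% held GAAANNGAAA, 6.57% TTCNNNGAA, 32.0% CCAAT, 21.2% TGACG and 6.73% GGGNNNTCCC. The HLA-B and HLA-C stretches were identical at 226 of 254 aligned positions (89.0%), and B2M and HLA-B at 44.5%. These are matches of letters in the reference and carry no measurement from these lines.

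HLA-B, a classical heavy chain, is annotated on chromosome 6 at 31269491 to 31357188 on the minus strand (GRCh38), a row that overlaps HLA-C (31268749 to 31272130, same strand). Their coding sequences are identical at 1008 of 1119 aligned positions (90.1%), and HLA-E matches them at 85.6% and 83.5%, so reads may be split or dropped between these rows and each value is uncertain. The HLA-B row held 252, 271 and 233 CPM in HCC1937 and 233, 166 and 288 CPM in HCC1187, and these lines overlapped. Hs578T had 60.7, 35.7 and 36.8 CPM, MDA-MB-231 47.6, 31.0 and 31.4 CPM, HCC1395 30.7, 28.4 and 23.2 CPM and MDA-MB-468 13.1, 10.5 and 12.6 CPM.

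MDA-MB-453 had 0 HLA-B counts in all 3 libraries. Against the median of the other lines of 8.51 CPM, this is at least 47.5-fold lower (floor of 3 counts over the summed libraries). The line means of MDA-MB-436, BT-20 and HCC1143 were also under 1 CPM, at 0.302 ± 0.159, 0.569 ± 0.098 and 0.714 ± 0.124 CPM (SD, n = 3 each). The row was called higher in 6 lines, HCC1937, HCC1187, Hs578T, MDA-MB-231, HCC1395 and MDA-MB-468, where 14.5%, 16.4%, 20.9%, 15%, 14.4% and 14.7% of all genes were. It was called lower in MDA-MB-453 (edgeR, adjusted p = 1.32e-13), as were 14.6% of all genes there. The fitted fold changes of HLA-B against the other 14 lines depend on the default prior count of the fit, since 1 line is at 0, and are not given.

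With a line at 0 in the mean compared with, the test cannot call another line lower. The 6 lines with a fitted HLA-B value below 0 (BT-20, HCC1143, HCC1806, HCC38, HCC70 and MDA-MB-436) had an unadjusted p of at least 0.826 for that reason, which says nothing of their levels. In a fit without MDA-MB-453, added after seeing the data, 5 of them were lower than the mean of the other 13 lines. The difference was −5.02 ± 0.41 on the log2 scale in MDA-MB-436 (SE; edgeR, adjusted p = 4.07e-14), −4.04 ± 0.38 in BT-20 (1.35e-12), −3.71 ± 0.37 in HCC1143 (1.41e-11), −3.21 ± 0.31 in HCC70 (2.91e-12) and −1.42 ± 0.26 in HCC38 (9.50e-06). The shares of all genes called lower there were 11.3%, 11.6%, 12.4%, 22.1% and 10.2%. Shares of all genes called higher in the fit without MDA-MB-453 are not given. The HLA-B row was still called higher in HCC1937, HCC1187, Hs578T, MDA-MB-231 and HCC1395, at 5.40 ± 0.11, 5.20 ± 0.12, 2.74 ± 0.15, 2.39 ± 0.16 and 1.96 ± 0.16 (SE; edgeR, highest adjusted p = 1.63e-14), but MDA-MB-468, at 0.64 ± 0.19 (adjusted p = 0.00411), was under the fold threshold.

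The HLA-C row was filled mainly in HCC1937, with 77.9, 76.5 and 65.9 CPM, followed by HCC38 with 7.29, 8.54 and 6.95 CPM and MDA-MB-231 with 4.64, 3.90 and 2.51 CPM. None of these 3 lines overlapped with another. In 28 of 45 libraries HLA-C had 5 or fewer counts. The row was called higher in those 3 lines and in MDA-MB-157 (1.43, 1.14 and 1.60 CPM), where 14.5%, 13.8%, 15% and 20% of all genes were. The differences were 7.29 ± 0.15, 3.79 ± 0.23, 2.68 ± 0.29 and 1.19 ± 0.36 on the log2 scale (SE; edgeR, adjusted p = 4.47e-37, 3.65e-19, 7.97e-11 and 0.0042). The 4 calls of lower in the HLA-C row, in BT-549, HCC1143, MDA-MB-436 and MDA-MB-453, where 10.7%, 11.3%, 10.9% and 14.6% of all genes were called lower, rest on 3, 1, 1 and 2 counts. With the libraries of a line summed, HLA-C was 2.85-fold, 6.15-fold, 7.22-fold and 3.24-fold lower there than the median of the other lines (95% Poisson intervals 0.975 to 13.8, 1.10 to 243, 1.30 to 285 and 0.897 to 26.8). Leaving out replicate 1, 2 or 3 puts HCC1143, MDA-MB-453 or MDA-MB-436 at 0, which voids the test of lower for the remaining 3 of these lines. With that line left out too, each of these calls held, at −1.97 to −3.47 on the log2 scale (edgeR, highest adjusted p = 0.0435). The call of higher in MDA-MB-157 did not hold in these fits without replicate 1 (0.82, edgeR, adjusted p = 0.126) and without replicate 3 (0.92, adjusted p = 0.0885).

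The order of lines in the heavy chain rows was not that of B2M. HCC1395, with 0.828 CPM of B2M, held 27.5 ± 3.83 CPM in the HLA-B row (SD, n = 3), 4.90 times the median of the other lines, and HCC70, highest in B2M, held 1.02 ± 0.53 CPM. Over 15 lines the HLA-B row and B2M had Pearson r = −0.15 on log2 CPM, a description only.

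The remaining rows can only be listed. TAP2 (chromosome 6, 32821833 to 32838780), a subunit of the peptide transporter, had counts in 5 lines, at most 19 in a library, and 0 in the other 10. TAP1 (32845209 to 32853978), its partner, had at most 3 counts in a library. HLA-E (30489467 to 30494205), the heavy chain read by NK cells, had 5 counts in all. PSMB9 (32844136 to 32859585), an immunoproteasome subunit whose row overlaps PSMB8 and TAP1, had 1 count, and PSMB8 (32840717 to 32844703) had 0. None of them passed the filter for the comparison of single lines, and only TAP2 passed it for the test on MYC given at the end.

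The wider pathway was read through 35 related genes, of which 28 have no transcript outside the primary assembly. All 28 were tested and differed among lines, with a median ratio of the highest to the lowest line mean of 5.62. Against the other 14 lines they were called higher in 38 of 420 comparisons (9.05%) and lower in 36 (8.57%), against 16.2% and 12.5% over all genes. The other 7 genes have such transcripts, and 5 of them had a median line mean under 1 CPM. Among these, TAPBP (tapasin) held 34 counts in 45 libraries, PSME1 and PSME2, the PA28 activator of the proteasome, held 9 and 2, and the class I genes HLA-F and HLA-G held 682 and 21.

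Of the loading and trimming genes, ERAP2, an aminopeptidase that trims peptides in the endoplasmic reticulum, varied 48.9-fold. It averaged 207 ± 58.8 CPM in Hs578T and 4.24 ± 0.69 CPM in HCC1395 (SD, n = 3 each). CANX, the chaperone calnexin, had the largest ratio of this list, 45.6 ± 11.6 CPM in HCC1806 and 0.177 ± 0.179 CPM in HCC1187, and is one of the genes with transcripts outside the primary assembly. TAPBPL, the peptide editor TAPBPR, named after its values were seen, averaged 33.5 ± 0.99 CPM in HCC70 and 1.49 ± 0.17 CPM in HCC1395.

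Among the proteasome genes, PSMB10, the remaining inducible catalytic subunit, averaged 29.2 ± 2.54 CPM in BT-20 and 1.01 ± 0.31 CPM in HCC1395 (SD, n = 3 each), a 28.8-fold range. The constitutive subunits PSMB5, PSMB6 and PSMB7 varied less. PSMB7, named after its values were seen, ranged 4.12-fold, with 462 ± 23.7 CPM in BT-549 and 112 ± 5.62 CPM in MDA-MB-157. PSMB5, which PSMB8 replaces in the immunoproteasome, ranged 2.77-fold, with 314 ± 47.0 CPM in BT-549 and 114 ± 15.3 CPM in MDA-MB-157, and PSMB6, which PSMB9 replaces, ranged 6.13-fold, with 249.9 ± 38.7 CPM in HCC1806 and 40.8 ± 6.02 CPM in MDA-MB-453. No test compared the ranges.

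Of the regulators, IRF1, an interferon-induced factor that acts on class I genes, averaged 84.4 ± 18.6 CPM in HCC1187 and 3.11 ± 1.05 CPM in MDA-MB-453 (SD, n = 3 each). NFYA, a subunit of the CCAAT-binding factor NF-Y, ranged 6.12-fold, with 139.6 ± 14.8 CPM in HCC1187 and 22.8 ± 1.19 CPM in HCC38. Among the receptors and kinases, IFNAR2, a chain of the type I interferon receptor, averaged 10.4 ± 4.64 CPM in MDA-MB-468 and 0.528 ± 0.154 CPM in MDA-MB-453, and the kinase JAK2 160 ± 7.22 CPM in HCC70 and 11.9 ± 1.92 CPM in HCC1806.

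By line, the 28 genes were called lower most often in MDA-MB-453, where 7 fell (ERAP1, IFNAR2, IFNGR1, IRF1, JAK1, PSMB6 and PSME3) and 2 rose (PDIA3 and RFX5), with 14.6% and 17.7% of all genes lower and higher. There IRF1 was at −3.19 ± 0.20 and IFNAR2 at −3.12 ± 0.36 on the log2 scale (SE; edgeR, adjusted p = 1.72e-18 and 2.39e-10), in the line with low NLRC5 and no HLA-B counts. In HCC1395, low in NLRC5 and B2M, 4 fell (ERAP2, IRF1, PSMB10 and TAPBPL) and 2 rose (NFYC and PSMB6), with 17.7% of all genes lower and 14.4% higher. In HCC70, highest in B2M, 6 rose (ERAP2, JAK1, JAK2, PSMB10, RFXANK and TAPBPL) and none fell, with 17.7% of all genes higher and 22.9% lower. BT-549, with 168 CPM of B2M, also had 6 higher and 1 lower (13.3% and 10.7% of all genes). HCC1143 and HCC1806, both called higher in B2M, had more calls of lower than HCC1395, with 0 higher and 5 lower in HCC1143 (18.4% and 11.3% of all genes) and 3 higher and 5 lower in HCC1806 (15.9% and 13.7%). In MDA-MB-157, with 0.282 CPM of B2M but among the 3 lines highest in NLRC5, 3 fell (NFKB1, PSMB7 and TAPBPL) and none rose, with 12.4% of all genes lower and 20% higher.

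**Figure D4:**
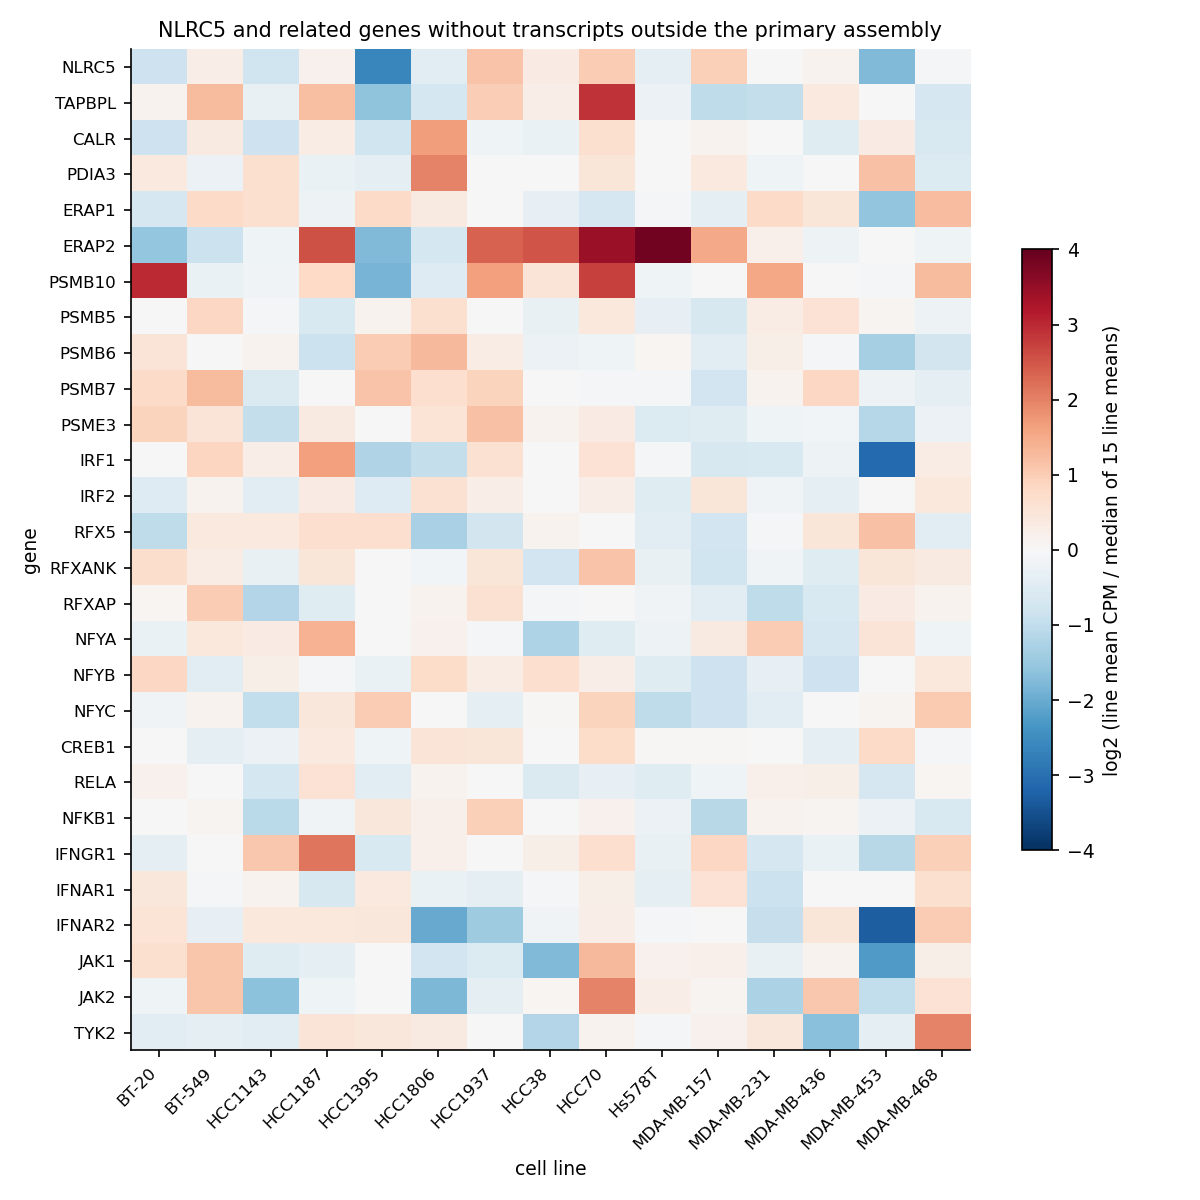
Rows are NLRC5 and the related genes with no transcript outside the primary assembly, all but 1 of the 28 drawn, columns are the 15 lines, and colour is the log2 of the line mean CPM over the median of the 15 line means (red above, blue below, scale from −4 to 4). MDA-MB-453 is blue at IRF1, IFNAR2 and JAK1, HCC1395 at NLRC5, ERAP2 and PSMB10, and HCC70 red at TAPBPL, ERAP2 and PSMB10.

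The genes whose log2 CPM over 15 lines was most like NLRC5 were GBP4, an interferon-induced GTPase, with Pearson r = 0.88, DNAJC3, an endoplasmic reticulum co-chaperone, with 0.87, and DAPK1, a death-associated kinase, with 0.84. Without HCC1395 and MDA-MB-453, the lines farthest from the median of NLRC5, r was 0.91, 0.89 and 0.74. GBP4 averaged 40.0 CPM in HCC70 and 33.9 CPM in HCC1937, and 0.182 CPM in HCC1395. For B2M the most alike genes were MGST1 (r = 0.89), ABHD17C (0.85) and PNP (0.83), and without MDA-MB-157 and HCC1395 r was 0.39, 0.40 and 0.47, so that the likeness rests on these 2 lines. For the HLA-B row they were ING4 (0.84), MSANTD2 (0.80) and ZNF439 (0.77), with 0.72, 0.73 and 0.80 without HCC1937 and HCC1187. TAP1 was not tested. These r values were picked as the highest among the tested genes over lines and are descriptions.

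Among the members, NLRC5 and B2M had r = 0.27 over 15 lines (Spearman rho 0.39). Without HCC1395 and MDA-MB-453, the lines farthest from the median of NLRC5, it was −0.30, and without HCC1395 and MDA-MB-157, the lines near 0 in B2M, it was 0.62, so that its sign rests on which lines are kept. NLRC5 had r = 0.61 with IRF1 and 0.50 with PSMB10. These became 0.18 and 0.20 without HCC1395 and MDA-MB-453, and 0.70 and 0.38 without HCC1395 and MDA-MB-157. The lines share library preparation and 11 of them their sequencing runs, and no p is given.

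**Figure D5:**
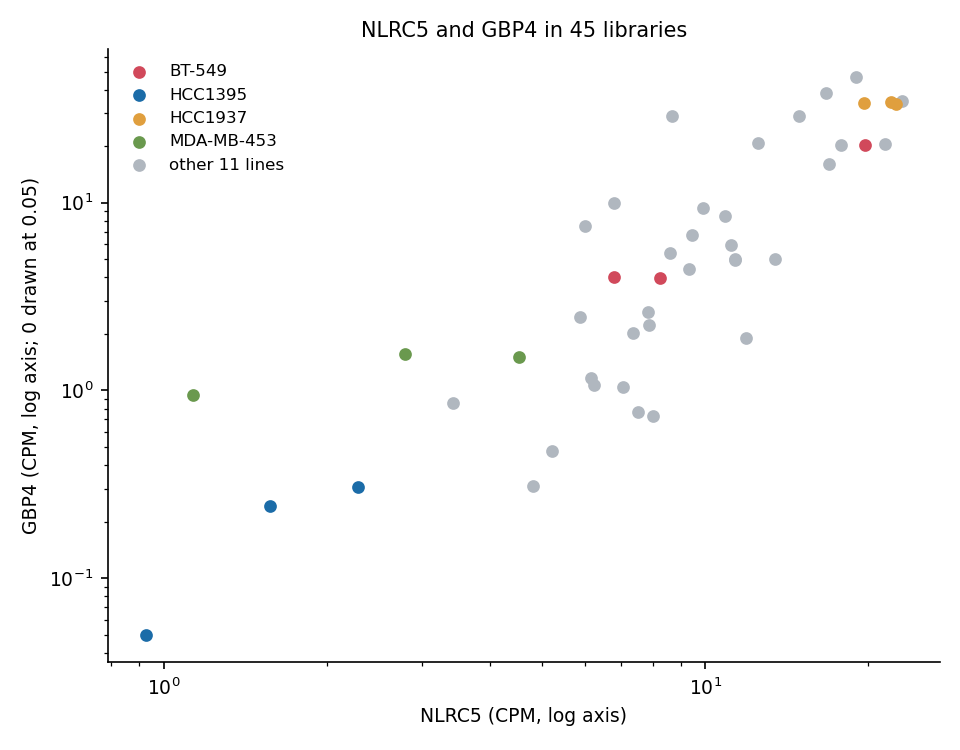
NLRC5 (x axis) and GBP4 (y axis), both in CPM on log scales, in each of 45 libraries, with 4 lines coloured. HCC1395 and MDA-MB-453 lie at the low end and HCC1937 at the high end, and replicate 3 of BT-549 (19.7 and 20.2 CPM) lies apart from its other libraries (8.24 and 3.95 CPM, 6.79 and 4.04 CPM).

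BT-549 replicate 3 stood apart from the other 2 libraries of its line in NLRC5, B2M and the HLA-B row. NLRC5 had 19.7 CPM in replicate 3, against 8.24 and 6.79 CPM in replicates 1 and 2, B2M had 264 CPM against 138 and 101, and the HLA-B row had 10.3 CPM against 5.15 and 4.36. TAP2 was not high there (0.337 CPM against 1.37 and 0.485), and HLA-C had 2 counts against 1 and 0. The interferon-induced gene GBP4 (20.2 CPM against 3.95 and 4.04) stood apart in the same library, whereas PSMB5 (299 against 367 and 277) did not. Between them, TAPBPL, PSMB10, IRF1, ERAP2 and JAK1 in replicate 3 were 1.77, 1.65, 1.63, 1.46 and 1.14 times the mean of replicates 1 and 2. Without this library the member calls over all lines numbered 22 higher and 9 lower, against 21 and 9 with it. The share of all genes called in the fit without it is not given, and nothing is read from the count.

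L-15 lines were set against RPMI 1640 lines with the line as the unit. B2M averaged 205 ± 146 CPM in 5 L-15 lines and 293 ± 168 CPM in 8 RPMI 1640 lines (SD over lines), a log2 difference of −0.57 ± 1.03 (SE; edgeR, adjusted p = 0.861). NLRC5 averaged 10.2 ± 5.67 CPM in L-15 lines and 11.2 ± 6.73 CPM in RPMI 1640 lines, a difference of −0.16 ± 0.57 (adjusted p = 0.936). The HLA-B and HLA-C rows differed by −2.49 ± 1.62 and −3.01 ± 1.71 (adjusted p = 0.574 and 0.524). MDA-MB-453, at 0 in the HLA-B row, is one of the L-15 lines, and without it the HLA-B difference was −2.19. No member of 4 tested was called, and 0 members were at an unadjusted p under 0.05. Of 20505 genes, 0 were called higher and 0 lower (0% each), with 2344 at an unadjusted p under 0.05, and DESeq2 called 484 genes and 0 members. Each L-15 line is an MDA-MB line, so medium and origin of the line cannot be told apart, and a p that misses the threshold does not show that the media are alike.

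The title of the study names cells with high MYC. The labels class no line by MYC, and each member was therefore tested for a slope on the log2 CPM of MYC over 15 lines. NLRC5 had a slope of 0.07 ± 0.35 (log2 per log2 of MYC, SE; edgeR, adjusted p = 0.997) and B2M 0.45 ± 0.60 (0.974). The HLA-B, HLA-C and TAP2 rows had slopes of 2.13 ± 1.20, 2.15 ± 1.11 and 1.94 ± 1.13 (adjusted p = 0.857, 0.841 and 0.861), and the HLA-B slope was 1.46 without MDA-MB-453. None of the 5 tested members was called, and 0 were at an unadjusted p under 0.05, where 1649 genes were. Of 26614 genes, 1 rose (0.00376%) and 40 fell (0.15%) with MYC.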

How the data were processed

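Total RNA of 45 libraries was depleted of ribosomal RNA (Ribo-Zero Gold) and made into libraries with ScriptSeq v2, per the labels' protocols. The submitters' processing notes name bcl2fastq 2.20.0.422, Trimmomatic, STAR, featureCounts and the build GRCh38.p12, per the labels. How strand and multiply aligned reads were handled is not given in the sources used here. Raw counts per gene were deposited by the authors, and 0 columns were left unused.

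Identifiers were matched to GENCODE 29 (58275 of 64485 rows, 90.4%). Another 45 rows are Y copies of pseudoautosomal genes, and 6165 rows not on the primary assembly, 6039 of them genes of that release, held 240853 counts (0.0785% of all). They were kept in the tests without names. Symbols, positions and transcript numbers come from that release. Promoter stretches come from RefSeq, with entries matched for 7 of the 9 members.

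From the deposited counts, CPM with TMM scaling and quasi-likelihood tests were computed in edgeR 4.0.16 (R 4.3.3, limma 3.58.1) after filterByExpr (minimum count 10, minimum total 15). A prior count of 2 was used for log2 CPM only, and the fits kept the default prior count of edgeR. Tests are two-sided with Benjamini-Hochberg adjustment over all genes at 0.05. SEs are the estimate over the square root of F. Medium and MYC tests used counts summed per line, with MYC left out of its own slope test. Ratios for B2M and its neighbours, and bounds, used summed libraries without TMM, with 95% exact Poisson intervals, which cover counting error only. The fits were tested on simulated data. DESeq2 1.42.0, its size factors in edgeR, other filters, single lines, replicates and runs left out, and replicate blocks were tried as alternatives. Leaving out BT-549 replicate 3, Hs578T replicate 2, the line MDA-MB-453, or a replicate with the line then at 0 in HLA-C was chosen after seeing the data.

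For 11 lines the labels tie replicates 1, 2 and 3 to runs 3, 4 and 5, so the number marks a shared run there. The deviations of 165 same-numbered pairs correlated at 0.059 on average (lowest −0.18), and those of other pairs at −0.029. The other 4 lines were sequenced in runs 1 and 2.

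All 9 members were named. Of each list of related genes, the 2 with the largest ratio of highest to lowest line mean among those tested were named, and ERAP2, PSMB5 and IRF1 always (1 further gene of the rule is not reported here), with the 3 protein-coding genes most correlated with NLRC5, B2M and HLA-B over lines. Members and lists were chosen with earlier results of these data known.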

Additional observations from a re-analysis of the deposited data

How the results depend on the processing

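Member calls in single lines numbered 21 higher and 9 lower, and 18 to 28 higher and 6 to 13 lower over 16 alternatives. The replicate block by number gave 21 and 9, with 20238 genes differing among lines, and the block by sequencing run gave 21 and 9 with 21528 genes, against 20224 without a block. Neither changed a member call. Of 30 calls, 25 held under each alternative in which a test was possible. Without replicate 1, 2 or 3 alone there were 6 calls of lower, because a line then at 0 voids HLA-C tests of lower, and with that line left out too there were 8, 12 and 10. The HLA-B call of higher in MDA-MB-468 was lost without MDA-MB-453 (0.64), also together with replicate 2 (0.75), and without replicate 3 and MDA-MB-436 (0.93). The HLA-C call of higher in MDA-MB-157 was lost without replicate 1 and HCC1143 (0.82) and without replicate 3 and MDA-MB-436 (0.92). B2M calls in HCC1143, HCC38 and MDA-MB-231 were lost within their own set of runs, where the construction leaves out the 2 lines near 0. Other scaling (relative log expression) moved the median gene by 0.12 in Hs578T and 0.11 in MDA-MB-157 on the log2 scale, and no member call changed direction under it. The NLRC5 difference by medium, not called, lay between −0.52 (without MDA-MB-157) and 0.058 (without MDA-MB-453), and was above 0 also without replicate 3 (0.02), HCC1937 (0.03) or HCC70 (0.03). Its MYC slope lay between −0.35 (without MDA-MB-453) and 0.40 (without MDA-MB-157), and was below 0 also without replicate 3 (−0.02) or HCC1937 (−0.04). The cause was not tested. No member was called in either comparison under any alternative run. The 41 genes on the MYC slope became 74 without a filter, 264 in DESeq2, 18 in runs 3 to 5, 23 without replicate 1, 27 without BT-549 and 0 without MDA-MB-453. Depth limits the HLA-C, TAP1, TAP2, HLA-E, PSMB8 and PSMB9 rows, where most libraries hold 5 or fewer counts.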
